A study of Sus scrofa with 8 samples.

Results

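The subunits of AMP-activated protein kinase (AMPK) were described in the longissimus dorsi, the long back muscle, of Korean native pigs and Yorkshire pigs. The 7 genes PRKAA1, PRKAA2, PRKAB1, PRKAB2, PRKAG1, PRKAG2 and PRKAG3 were taken as those named by at least 1 probe set with a single gene symbol in the platform annotation. They were 7 of 6765 genes with such a probe set, and 9 probe sets carried their names. Muscle from between the seventh and ninth ribs of 4 Korean native pigs aged 7 months and 4 Yorkshire pigs aged 6 months was profiled on Affymetrix arrays, 4 per breed, which the labels call biological replicates. They are named Korean native 1 to 4 and Yorkshire 1 to 4 here. The labels state shared rearing conditions and list no treatment. Breed and age differed together and cannot be told apart in any comparison. The series asks which genes differ in muscle expression between these breeds.

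AMPK senses the energy state of the cell. Each enzyme is built from a catalytic alpha subunit, a beta subunit that holds the complex together and binds glycogen, and a gamma subunit that binds AMP, ADP and ATP. Once active, the kinase promotes glucose uptake and fatty acid oxidation and restrains lipid synthesis. In skeletal muscle the products of PRKAA2, PRKAB2 and PRKAG3 form a complex that responds to contraction. PRKAG3 is expressed mainly in fast, glycolytic muscle, and missense variants of this gene in pigs are known for their effect on muscle glycogen and meat quality. The arrays measured messenger RNA and not kinase activity, protein or genotype.

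The median signal of an array was between 135.8 and 185.3, and signals were deposited on a common scale. Array quality differed within both breeds. Korean native 1 and Yorkshire 3 had the highest ratio of 3' to 5' signal in housekeeping control transcripts, at 3.37 and 3.07 log2 units, against 0.88 to 1.74 on the other 6 arrays. Bacterial hybridisation controls averaged 13.41 to 13.70 log2 units on the arrays numbered 1 and 3 in each breed, called the bright arrays below. They averaged 12.48 to 12.80 on those numbered 2 and 4, called the dim arrays. Every bright array also had a higher 3' to 5' ratio (1.41 to 3.37) than every dim array (0.88 to 1.21). Brightness and this ratio therefore cannot be told apart between the bright and the dim arrays. Of 11 skeletal muscle markers 7 had a probe set. Their summed signal was 333899 to 518364 in the Korean natives and 428961 to 676207 in the Yorkshires, while that of 3 liver markers was 660.5 to 1512 over all arrays. The 5 of 7 adipocyte markers with a probe set summed to 5304 to 11425 in the Korean natives and 6806 to 13412 in the Yorkshires, and their part in the results was not tested.

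No AMPK subunit gene had a breed difference that passed the test used. Changes are Korean native minus Yorkshire on the log2(signal + 32) scale, tested with limma, which fits a linear model to every probe set and adjusts p-values over all of them. The dimmest 40% of probe sets were left out. All 7 genes passed the filter on dim probe sets, through 8 of their 9 probe sets, and 0 of the 8 passed limma's adjusted threshold of 0.05. Among all 14399 probe sets 0% were called, and 3.96% had an unadjusted p under 0.05. Of the subunit probe sets 0 had an unadjusted p under 0.05. The values of the breeds overlapped for each of the 7 genes, and over all probe sets they did not overlap in 2.56%. Of the 7 genes 3 were above 0 and 4 below 0 in the Korean natives, with a median log2 change of -0.05. PRKAG3 had the change farthest from 0, at -0.58, and PRKAB2 the highest, at 0.44.

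**Figure D1:**
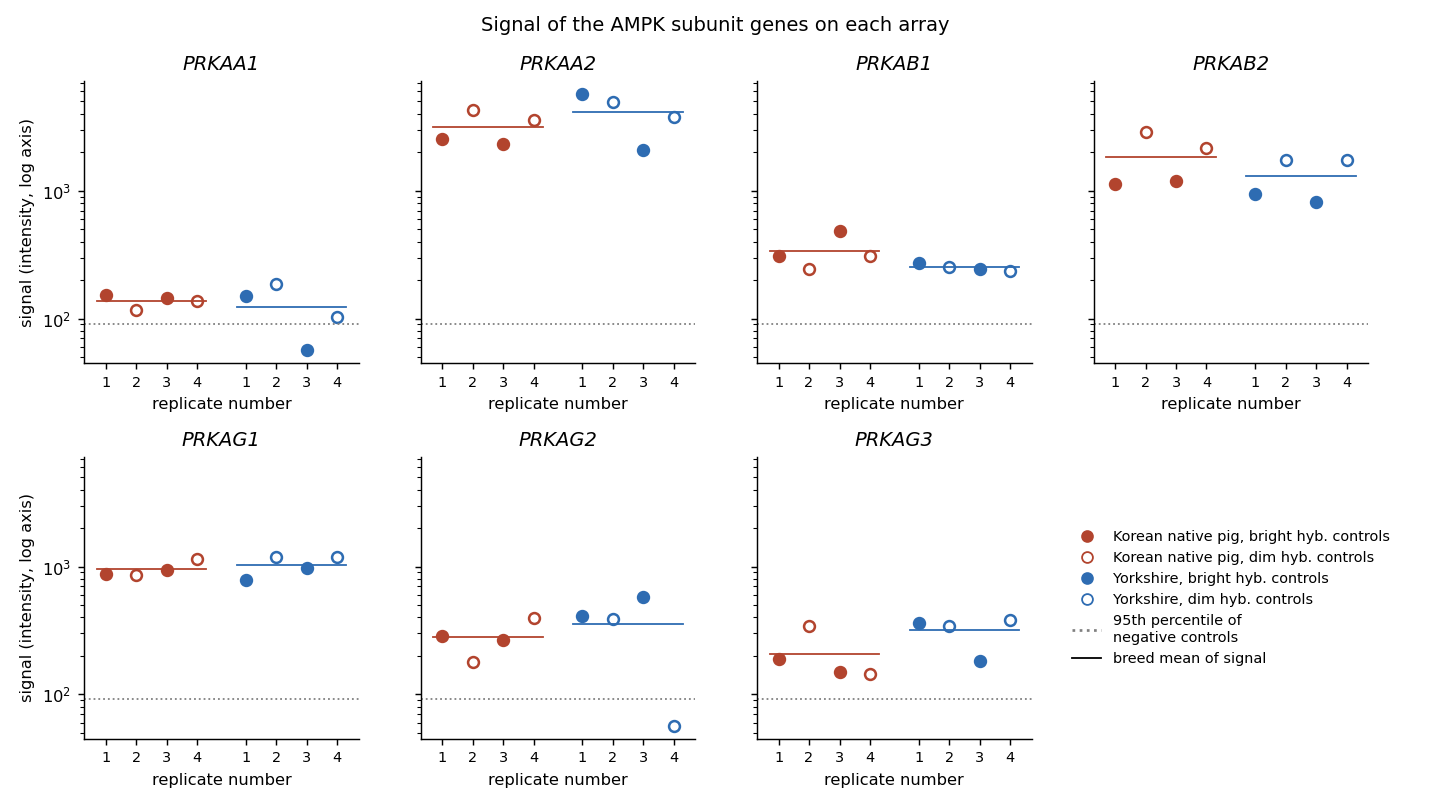
Signal of the representing probe set of each AMPK subunit gene on each array (log axis), with replicates 1 to 4 of the Korean natives in red and of Yorkshires in blue. Filled points are bright and open points dim arrays, lines are breed means, and the dotted line marks the 95th percentile of negative controls, 91.5. The breeds overlap in every panel, and PRKAB2 separates filled from open points.

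PRKAG3, the gamma subunit of fast muscle, had signals of 188, 342, 149 and 145 in Korean natives 1 to 4. In Yorkshires 1 to 4 its signals were 362, 343, 184 and 382. Low and high animals occurred in both breeds. Korean natives 1, 3 and 4 and Yorkshire 3 lay between 145 and 188, while Korean native 2 and the other Yorkshires lay between 342 and 382. The breed means were 206 ± 92.7 and 318 ± 90.6 (SD, n = 4). The log2 change was -0.58 (SE 0.31, 95% interval -1.27 to 0.11; limma adjusted p = 0.999), and by p it ranked 1083 among 14399 probe sets. As a ratio of the Korean natives to the Yorkshires the interval ran from 0.415 to 1.08. Without Korean native 2 the change was -0.82 and without Yorkshire 3 it was -0.80, with limma adjusted p-values of 0.971 and 0.994.

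Array quality differed among the low PRKAG3 animals. The arrays with 3' to 5' ratios of 3.37 and 3.07 were both among the low ones, and the change was -0.78 (limma adjusted p = 0.984) with those left out. Within the bright arrays the change was -0.55 and within the dim arrays -0.62. The 7 fast fibre genes with a probe set, of 13 listed, had changes below 0, of which 0 passed, with a summed signal of 340893 to 498887 in the Korean natives and 461718 to 736533 in the Yorkshires. Slow fibre genes were also mostly below 0, at 8 of 9 tested, as were 6 of 7 muscle markers, some of which are also in the fibre lists. Over all tested genes 50.4% were below 0. Within the bright arrays TNNC1, MYL3, TNNI1, TNNT1, MYL2 and MYH7 lay between 0.02 and 0.32, and TPM3, MYBPC1 and ATP2A2 between -0.32 and -0.02. Within the dim arrays slow fibre genes other than TPM3 (0.34) lay between -0.80 and -0.22. Yorkshire 4 was highest for all 7 fast fibre genes. Their changes ran from -0.47 (MYH2) to 0.11 (ATP2A1) within the bright arrays, where TNNC2, MYL1, MYLPF, TNNT3 and TNNI2 lay between -0.054 and 0.017. Within the dim arrays, which include Yorkshire 4, they ran from -0.80 (TNNC2) to -0.52 (TNNI2). In an alternative chosen after seeing the data, with the mean log2 signal of the 7 fast fibre genes on the same array subtracted, the PRKAG3 change was -0.22 (SE 0.29; limma adjusted p = 0.999). The mean subtracted was 16.62 for Yorkshire 4 and 15.48 to 15.97 for the other arrays, so this value depends on Yorkshire 4. Whether fibre content had a part in the PRKAG3 change was not tested. In whole muscle, a smaller share of fibres that express a gene and less RNA per fibre cannot be told apart.

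PRKAG1, the gamma subunit found in most tissues, varied least of the 7 on its brighter probe set. Its signals were 868, 852, 947 and 1139 in the Korean natives and 778, 1190.3, 969 and 1178 in the Yorkshires. The means were 951 ± 131 and 1029 ± 196 (SD, n = 4), with a log2 change of -0.10 (SE 0.20, 95% interval -0.54 to 0.34; limma adjusted p = 0.999). This interval was the narrowest of the 7. Leaving out 1 array moved the change between -0.22 (Yorkshire 1) and -0.024 (Yorkshire 2), and within the bright arrays it was 0.060. A second PRKAG1 probe set gave 150.3, 439, 347 and 419.7 against 379, 775, 199.6 and 422, with a change of -0.31 (SE 0.39; limma adjusted p = 0.999). It varied more, with an SD of log2 signal of 0.66 over the 8 arrays against 0.23 for the brighter one. On this second probe set the 4 dim arrays all lay above the 4 bright arrays, and Korean native 1 and Yorkshire 3 were lowest. Over the 8 arrays both probe sets had a Pearson r of 0.49 (exact permutation p = 0.223, adjusted over 2 such genes 0.446) and a Spearman rho of 0.40 (exact permutation p = 0.327). Without the 2 arrays farthest from the median r was 0.09.

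PRKAG2 is a gamma subunit prominent in heart. Its signals were 287, 179, 266 and 396 in the Korean natives and 407, 386, 578 and 56.9 in the Yorkshires. Yorkshire 4 was the single array below the 91.5 of the negative controls, and Yorkshire 3 was the highest, so both ends of the range came from one breed. The other 7 arrays lay between 179 and 578. The means were 282 ± 89.2 and 357 ± 218 (SD, n = 4), with a log2 change of -0.05 (SE 0.51, 95% interval -1.16 to 1.06; limma adjusted p = 0.999). The direction turned on single arrays: the change was -0.66 without Yorkshire 4 and 0.27 without Yorkshire 3. It was -0.75 within the bright and 0.64 within the dim arrays.

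Of the catalytic subunits, PRKAA2, the main form of skeletal muscle, was well above the negative controls on every array. Its signals were 2537, 4296, 2331 and 3560.2 in the Korean natives and 5737, 4910.2, 2079 and 3801 in the Yorkshires. The lowest and the highest animal were both Yorkshire. Korean natives 1 and 3 and Yorkshire 3, all bright arrays, were the 3 lowest, but Yorkshire 1, also bright, was the highest. The means were 3181 ± 917 and 4132 ± 1582 (SD, n = 4). The log2 change was -0.32 (SE 0.31, 95% interval -0.99 to 0.35; limma adjusted p = 0.999). Leaving out Yorkshire 3 gave -0.62 and leaving out Yorkshire 1 gave -0.13, and omitting the pair of arrays with the highest 3' to 5' ratios gave -0.52. Within the bright arrays it was -0.50 and within the dim ones -0.14.

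PRKAA1, the catalytic subunit found in most tissues, was near the negative controls. Its brighter probe set gave 153, 116, 145 and 138 in the Korean natives and 149.6, 187, 56.7 and 103 in the Yorkshires, with Yorkshire 3 below 91.5. The means were 138 ± 15.6 and 124 ± 56.4 (SD, n = 4), and the log2 change was 0.20 (SE 0.34, 95% interval -0.54 to 0.94; limma adjusted p = 0.999). Without Yorkshire 3 it was -0.047. The second PRKAA1 probe set lay between 24.4 and 85.2, below the 91.5 of the negative controls on all 8 arrays, and was not tested. Signals this close to the negative controls limit what can be read from PRKAA1.

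**Figure D2:**
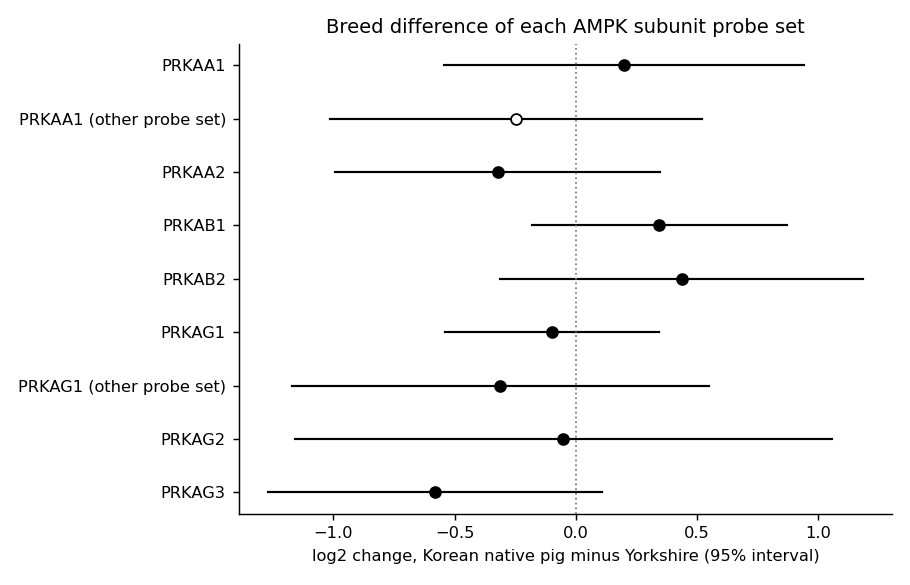
Log2 change (Korean native minus Yorkshire) of the 9 AMPK subunit probe sets as points, with 95% intervals as lines. The open point is the PRKAA1 probe set that was too dim to be tested, taken from the fit without a filter. Every interval spans 0, and that of PRKAG3 reaches from -1.27 to 0.11.

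Both beta subunits had higher means in the Korean natives, neither past the threshold. PRKAB1 had signals of 309, 246, 486 and 310.4 in the Korean natives and 272, 254, 245 and 237 in the Yorkshires. The Yorkshire animals were close together, and the spread came from the Korean natives, of which number 3 was highest and number 2 lay within the Yorkshire range. The means were 338 ± 103 and 252 ± 15.1 (SD, n = 4), with a log2 change of 0.34 (SE 0.24, 95% interval -0.18 to 0.87; limma adjusted p = 0.999). Without Korean native 3 it was 0.17. Within the bright arrays it was 0.53, and within the dim arrays 0.16.

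PRKAB2, the beta subunit of skeletal muscle complexes, differed by 1.02 log2 units between dim and bright arrays, against 0.44 between the breeds. Its signals were 1126, 2862, 1184 and 2145 in the Korean natives and 943, 1749, 825 and 1746 in the Yorkshires. All 4 dim arrays (1746 to 2862) lay above all 4 bright arrays (825 to 1184), which held for 2.89% of all probe sets. The breed means were 1829 ± 832 and 1316 ± 500.7 (SD, n = 4), with a log2 change of 0.44 (SE 0.34, 95% interval -0.31 to 1.18; limma adjusted p = 0.999). Within the bright and within the dim arrays each Korean native lay above each Yorkshire, with changes of 0.38 and 0.50. With array brightness as a block the change had an SE of 0.17 and a 95% interval of 0.06 to 0.82 (limma adjusted p = 0.984). Its unadjusted p was under 0.05 in that fit, as it was for 4.74% of all probe sets. Leaving out Korean native 2 gave 0.19.

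Signals of different probe sets cannot be read as relative amounts of transcript, since probes differ in how well they bind. Isoforms were therefore compared as log2 differences within an array, and only between breeds. In 5 such contrasts no breed difference passed (exact permutation tests, two-sided, adjusted over the 5; the smallest p that 4 against 4 arrays allow is 0.0286). PRKAA2 minus PRKAA1 was 4.20 ± 0.53 in the Korean natives and 4.72 ± 0.23 in the Yorkshires (SD, n = 4), a difference of -0.52 (exact permutation p = 0.143, adjusted p = 0.643). The PRKAA1 signal of Yorkshire 3 was below the negative controls, and leaving that array out gave -0.57. With any 1 array left out the difference ranged from -0.74 to -0.37 (exact permutation tests, adjusted p of 0.143 or above). PRKAG3 minus PRKAG1 was -2.11 ± 0.64 against -1.63 ± 0.48, a difference of -0.48 (SD, n = 4; exact permutation p = 0.257, adjusted p = 0.643). This difference was -0.28 with Korean native 4 left out, -0.29 with Yorkshire 1 left out and -0.77 with Korean native 2 left out. PRKAG3 minus PRKAG2 was -0.43 ± 0.89 for Korean natives (SD, n = 4), and the breed difference was -0.53 (exact permutation p = 0.571, adjusted p = 0.943). It became 0.18 without Yorkshire 4, whose PRKAG2 signal was not above the negative controls.

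PRKAB2 minus PRKAB1 was 2.26 ± 0.95 in the Korean natives and 2.17 ± 0.59 in the Yorkshires (SD, n = 4; exact permutation p = 0.8, adjusted p = 0.943). It lay between 1.23 and 1.77 on the bright and between 2.64 and 3.38 on the dim arrays. PRKAG2 minus PRKAG1 was -1.68 ± 0.28 in the Korean natives (SD, n = 4) and -0.88, -1.55 and -0.71 in Yorkshires 1 to 3. Yorkshire 4 was lower, with a PRKAG2 signal not above the negative controls, so its difference is not given. The breed difference was 0.05 with that array (exact permutation p = 0.943, adjusted p = 0.943) and -0.63 without it (exact permutation p = 0.114, adjusted p = 0.5).

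**Figure D3:**
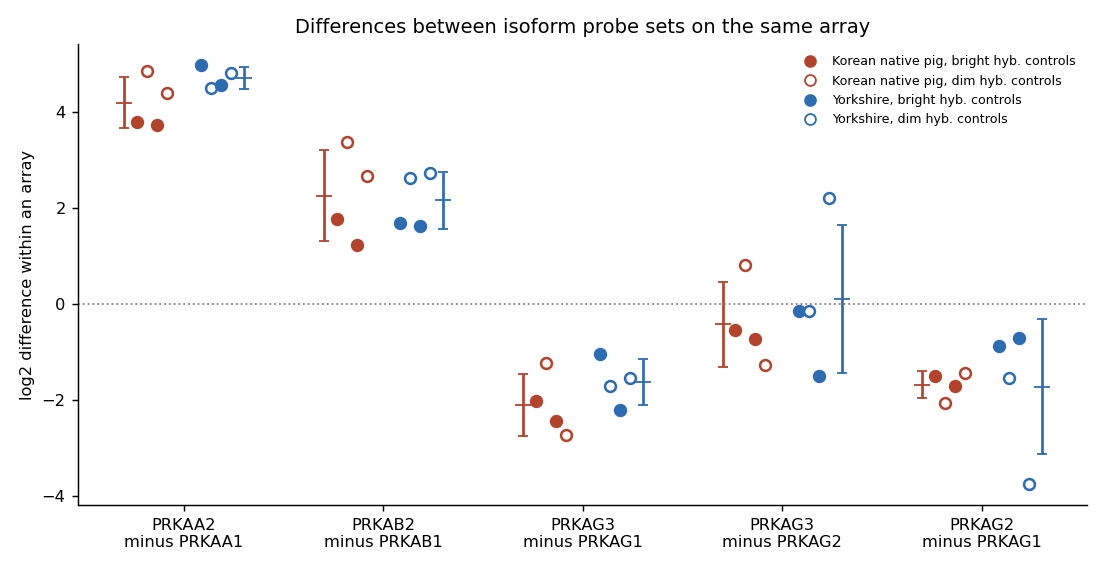
Log2 difference between isoform probe sets on the same array, for 5 contrasts, with Korean natives in red, Yorkshires in blue, filled points for bright and open points for dim arrays. Bars are the mean and SD of 4 arrays. PRKAB2 minus PRKAB1 separates bright from dim arrays within both breeds. Both contrasts with PRKAG2 include Yorkshire 4, where PRKAG2 was below the negative controls, and the contrast with PRKAA1 includes Yorkshire 3, where PRKAA1 was.

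No pair of subunits passed a test of correlation across animals. Because the signals of PRKAG3 and of PRKAB2 each fell into separate sets of 4 arrays, no pooled correlation is given for their 11 pairs, and the relation cannot be tested within sets of 4. For the other 10 pairs Pearson r over 8 arrays was between -0.44 and 0.51 and Spearman rho between -0.24 and 0.55. The lowest exact permutation p was 0.198 for r and 0.171 for rho, and among these 10 pairs the lowest p adjusted over all 21 was 0.846 for r. Over all 21 pairs the lowest adjusted p was 0.475. Of the 11 pairs without a printed r, 2 had an unadjusted exact permutation p under 0.05 for r, PRKAG3 with PRKAA2 (positive) and PRKAG3 with PRKAB1 (negative). For rho 0 of the 21 pairs did. For the 10 pairs without PRKAG3 and PRKAB2, r without the 2 arrays farthest from the median was between -0.53 and 0.68. The bright and the dim sets hold 4 arrays each, too few for a correlation within them. By value, the 4 arrays of high PRKAG3 had PRKAA2 signals of 3801 to 5737, above the 2079 to 3560.2 of the 4 arrays of low PRKAG3. PRKAB1 signals overlapped, at 237 to 272 on the arrays of high PRKAG3 and 245 to 486 on those of low PRKAG3.

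**Figure D4:**
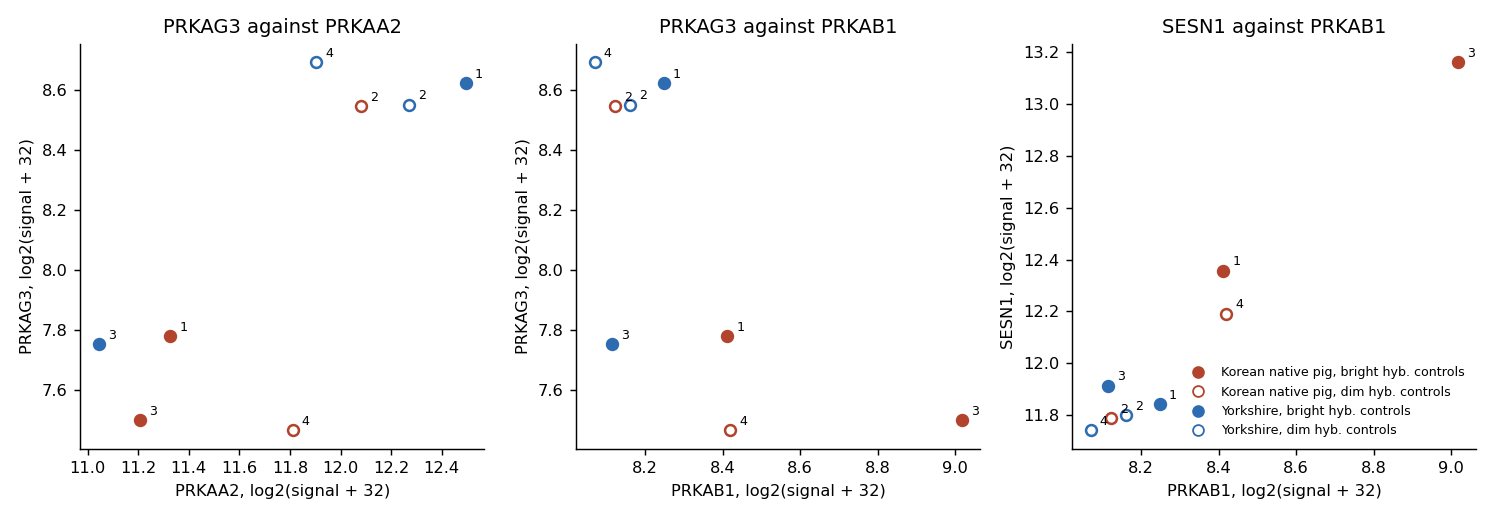
Log2(signal + 32) of PRKAG3 against PRKAA2, of PRKAG3 against PRKAB1, and of SESN1 against PRKAB1, with 1 numbered point per array, Korean natives in red and Yorkshires in blue, bright arrays filled and dim arrays open. PRKAG3 forms separate lower and upper sets of 4 arrays. SESN1 and PRKAB1 are both highest in Korean native 3.

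The genes whose pattern over the 8 arrays was most like that of a subunit were ranked by Pearson r among 5330 other tested genes. These values describe the top of a ranking, and they carry no test. For PRKAG3 they were M6PR (r = 0.96), which carries lysosomal enzymes from the Golgi, CACNA2D1 (r = 0.94), a subunit of voltage-gated calcium channels, and DCTN5 (r = 0.94), a subunit of dynactin. The calcium and calmodulin dependent kinase gene CAMK2D (r = 0.93) and the ubiquitin-conjugating enzyme gene UBE2N (r = 0.92) followed. CACNA2D1 had signals of 5224, 11959, 3933 and 5490 in the Korean natives and 9744, 9912, 4931 and 9879 in the Yorkshires. All 5 genes had the same lower and upper sets of 4 arrays as PRKAG3, and each Pearson r rests in part on that separation. By rank, Spearman rho was 0.95 for M6PR, 0.64 for CACNA2D1, 0.71 for DCTN5, 0.81 for CAMK2D and 0.67 for UBE2N.

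For PRKAB1 the closest gene was SESN1 (r = 0.98, Spearman rho 0.83), which encodes a sestrin, a stress-induced protein known to bind AMPK. Its signals were 5213, 3502, 9128.5 and 4644 in the Korean natives and 3639, 3533, 3824 and 3390.3 in the Yorkshires. Korean native 3 was highest for both genes, and without Korean natives 3 and 4, the arrays farthest from the PRKAB1 median, r was 0.89. YPEL5 (r = 0.94) and AGPAT5 (r = 0.94), an acyltransferase gene of phospholipid synthesis, came next.

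For PRKAA2 the closest were TMEM59 (r = 0.95), the vesicle transport GTPase gene RAB11A (r = 0.94) and the aldehyde dehydrogenase gene ALDH2 (r = 0.93). For PRKAB2 the closest gene with a descriptive name was NAXE (r = 0.94), which repairs damaged NADH and NADPH, after LOC102162486 (r = 0.97) and before CYP19A3 (r = 0.94). With the means of the bright and of the dim arrays subtracted, r with PRKAB2 was 0.84 for LOC102162486, 0.69 for NAXE and 0.68 for CYP19A3. All 3 genes were higher on every dim than on every bright array, as PRKAB2 was, and their r rests in part on that separation. PRKAG2 was closest to FAM111B, TMEM42 and TMED10 (r = 0.97 for each), and Yorkshire 4, where PRKAG2 was below the negative controls, was lowest for all of them. Without Korean native 2 and Yorkshire 4 these were 0.84, 0.81 and 0.83. FAM111B was itself below the negative controls in Korean natives 2 and 3 and Yorkshire 4. PRKAG1 was closest to INPP5B (r = 0.94), ORMDL2 (r = 0.93) and STAT6 (r = 0.93). PRKAA1 was closest to LMAN2 (r = 0.95), SMAD3 (r = 0.92) and LOC102167697 (r = 0.91), and without Yorkshire 3 and 4 these were 0.84, 0.58 and 0.49.

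Of the genes that act on AMPK, or through which it acts, 0 passed. Counts were read against all 5331 tested genes, of which 50.4% were below 0 with a median of -0.0027, 0% passed the adjusted threshold and 3.43% had an unadjusted p under 0.05. Of 19 upstream kinases and regulators 6 were tested, 2 above 0 and 4 below, with a median of -0.10 and none under an unadjusted p of 0.05. SESN1 was at 0.55 (SE 0.25, 95% interval -0.0031 to 1.10; limma adjusted p = 0.999), with a second probe set at 0.60, and without Korean native 3 it was 0.29. STRADB, a pseudokinase partner of the AMPK kinase STK11, was at -0.22 (SE 0.19; limma adjusted p = 0.999) and its other probe sets at 0.06, -0.22 and -0.22. Leaving out Yorkshire 1 gave -0.13 for STRADB.

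Of 26 substrates and downstream proteins 11 were tested, 5 above 0 and 6 below, with a median of -0.17 and 1 at an unadjusted p under 0.05. That gene was PPARGC1A, a coactivator of mitochondrial biogenesis, with signals of 510.2, 745, 685 and 694 in the Korean natives and 818, 1428, 3477.5 and 683 in the Yorkshires. Yorkshire 3 stood far above the rest, and the breeds overlapped. Leaving out Yorkshire 3 moved the PPARGC1A change from -0.96 to -0.49. HDAC5, a class II histone deacetylase, was at -0.61 (SE 0.33; limma adjusted p = 0.999), at -0.95 with Yorkshire 2 left out and at -0.38 with Yorkshire 4 left out. Of 14 AMPK-related kinases 6 were tested, with a median of -0.16. SIK2 was at -0.51 (SE 0.24; limma adjusted p = 0.999), its other probe sets at -0.49 and -0.15, and MARK1 at -0.38 (SE 0.29; limma adjusted p = 0.999). MARK1 was at -0.58 with Korean native 2 left out and at -0.23 with Korean native 1 left out.

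Enzymes of adenine nucleotides and phosphocreatine set the levels of AMP and ATP that AMPK senses. Of 20 such genes 10 were tested, 3 above 0 and 7 below, with a median of -0.09. The gene of lowest p was ADSSL1, the adenylosuccinate synthase of muscle and an enzyme of the purine nucleotide cycle. Its signals were 10938, 14339.7, 6771.5 and 9090.4 in the Korean natives and 15663, 24028, 14626.5 and 22999.5 in the Yorkshires. Every Korean native lay below every Yorkshire, and the breeds likewise did not overlap in 2.56% of all probe sets. The log2 change was -0.93 (SE 0.25, 95% interval -1.48 to -0.37; limma adjusted p = 0.999), with -0.81 within the bright and -1.04 within the dim arrays, and it was the gene of its list with an unadjusted p under 0.05. A second ADSSL1 probe set was at -0.10 (SE 0.27), so the probe sets disagreed. CKM, the muscle creatine kinase, was at -0.33 (SE 0.22; limma adjusted p = 0.999). The CKM change was -0.0028 within the bright and -0.66 within the dim arrays, and -0.19 with Korean native 4 left out.

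Of 24 genes of glycogen synthesis and breakdown 11 were tested, 3 above 0 and 8 below, with a median of -0.25 and none under an unadjusted p of 0.05. PYGM, the muscle glycogen phosphorylase, was at -0.32 (SE 0.23; limma adjusted p = 0.999), with further probe sets at -0.25, -0.10 and -0.08. Leaving out Yorkshire 4 gave -0.12 for PYGM. PHKG2, a catalytic subunit of phosphorylase kinase, was at -0.64 (SE 0.45; limma adjusted p = 0.999). Its signals lay between 13.8 and 180, near the 91.5 of the negative controls. Korean native 3, at 13.8, was far below the negative controls, and Korean native 1 (85.5) and Yorkshire 2 (79.2) were also below them. Leaving out Korean native 3 gave -0.23 for PHKG2. The medians were -0.32 for 7 fast fibre genes, the smallest p-values being those of TNNC2 at -0.42 and MYL1 at -0.33, and -0.22 for 9 slow fibre genes, the smallest p-values being those of MYL2 at -0.24 and MYH7 at -0.28, none of which passed. Each moved by over 1.5 times when 1 array was left out. TNNC2 was -0.23 without Yorkshire 4 and MYH7 -0.10 without Yorkshire 3, and with Korean native 4 omitted MYL1 was -0.19 and MYL2 -0.086.

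**Figure D5:**
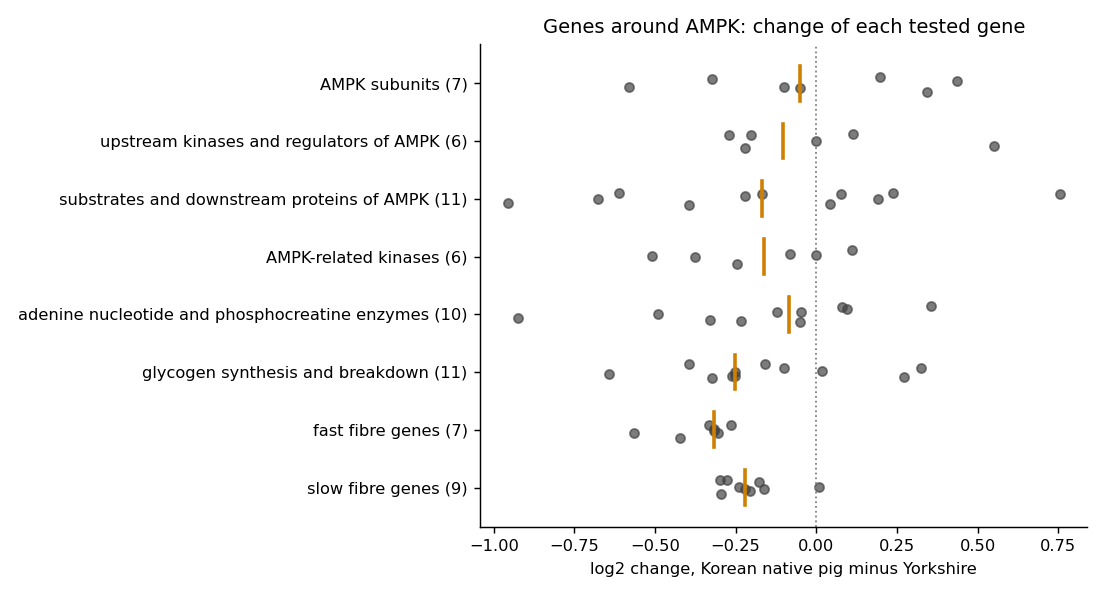
Log2 change (Korean native minus Yorkshire) of each tested gene in 8 lists around AMPK, with the number tested in parentheses. Points are genes and orange bars list medians. The 7 subunits lie on both sides of 0, with a median of -0.05, and 7 of 7 fast fibre and 8 of 9 slow fibre genes lie below 0. Over all tested genes 50.4% were below 0.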

How the data were processed

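Trizol-extracted total RNA carried a biotin label, per the labels' protocols. The authors deposited an intensity, on a linear scale, for each of 24123 probe sets. The submitters' processing notes list GCOS 1.3. The probe summary method was not given in the sources used here. The mean without the highest and lowest 2% was 500.1 to 500.2 on each array, so changes are relative to the other probe sets.

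Values were transformed to log2(signal + 32), which understates fold changes at low signal. Left out were 124 control probe sets and the dimmest 40% of the rest by mean log2 (signal limit 98.6). The remaining 14399 were fitted with limma 3.58.1 in R 4.3.3 (intensity trend, no covariates, Benjamini-Hochberg). Fits were tested on simulated data. A gene is represented by its brightest probe set, and symbols come from GEO's platform annotation, which can be old. Permutation tests used Python 3.11.15. The number of arrays limits precision: a 95% interval reached a median of 0.62 to either side of the change.

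Members and gene lists were chosen with earlier results of these data known. From each list the 2 genes of smallest p were named where none passed, and the genes most like each member were taken by Pearson r (5 for PRKAG3, 3 for the others). Alternatives covered the pseudocount, filter, scaling, trend, blocks, array subsets and single arrays left out. Labels call the arrays biological replicates. No sequences or positions are reported.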

Additional observations from a re-analysis of the deposited data

Results flagged for a closer look

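The PRKAG3 signal of Yorkshire 3, 183.8, stood apart from the other Yorkshire animals, which lay between 343 and 382. Its gap to the nearest animal was 0.85 of the range of the breed on the log2 scale, above Dixon's 95% critical value for 4 samples. This array also had the second highest 3' to 5' ratio, 3.07, and its part in the low signal was not tested. Korean natives 3 and 4, with ratios of 1.41 and 1.21, had lower PRKAG3 signals still. Without Yorkshire 3 the PRKAG3 change was -0.80 (limma adjusted p = 0.994). It was the 1 such gap in 28 sets of 4 values examined, and chance gives one in about 1 of 20 sets, so its number is no more than chance gives.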

How the results depend on the processing

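No AMPK subunit probe set was called under any of 21 other settings of the fit, by limma at an adjusted p under 0.05, and 0 to 2 of them had an unadjusted p under 0.05. With the replicate number as a block 1 probe set of the whole table was called against 0, and no subunit. Same-numbered arrays had correlations of deviations of -0.04, 0.31, 0.10 and 0.05, so the numbers were not taken to pair the animals. Hybridisation controls did follow the numbers in the same order in both breeds. No subunit pair passed under 9 other settings. PRKAG3, PRKAA2, PRKAB1 and PRKAB2 kept their direction under every setting run. PRKAG3 ranged from -0.82 to -0.46 with 1 array left out. PRKAA1 turned to -0.11 within the dim arrays, -0.088 with the pair of arrays of highest 3' to 5' ratio omitted, -0.024 as the mean of its probe sets and -0.25 on its other probe set, and ranged from -0.047 to 0.39 with 1 array left out. PRKAG1 turned to 0.060 within the bright arrays. PRKAG2 turned to 0.016 with a pseudocount of 1, 0.025 with arrays centred on their median, 0.64 within the dim arrays and 0.24 with that pair of arrays omitted, and ranged from -0.66 to 0.27 with 1 array left out. With 1 array left out, PRKAB2 minus PRKAB1 ranged from -0.28 to 0.43, PRKAG3 minus PRKAG2 from -1.06 to 0.18 and PRKAG2 minus PRKAG1 from -0.63 to 0.39. The cause of these turns was not tested.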
